A study of Mus musculus with 4 samples.

Results

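The transcripts of 41 cytokine and chemokine receptor genes were followed in sorted mouse leukemia cells. The genes were taken from a fixed list of mouse symbols that holds receptors for colony-stimulating factors, interleukins, interferons, tumor necrosis factor (TNF), transforming growth factor beta (TGF-beta) and chemokines. All 41 matched 1 gene identifier each among the 45232 in the count tables, and the rule that lists them uses no measured value, although the list was drawn up with earlier results of these data known. The cells were leukemic granulocyte-macrophage progenitors (L-GMPs), which the labels describe as primary leukemic stem cells, from mice carrying a leukemia driven by the MLL-AF9 fusion oncogene. One group is labelled Scr and the other miR-99 KD, and the series design gives 2 mice in each. Every mouse was a secondary recipient of the leukemia, and the cells of both groups were sorted when the mouse died, by a gate positive for CD34, CD16/32, Sca-1 and c-Kit and for GFP and tdTom. What Scr and KD stand for is not spelled out. The sources used here do not give the agent behind each, the strain, age and sex of the mice, what GFP and tdTom mark, or whether all mice received cells of 1 primary leukemia. With 1 library per mouse, each p-value sets the group difference against the spread between mice. If the mice share 1 primary leukemia, that spread does not cover differences between leukemias.

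Cytokine receptors of the hematopoietic class have no enzyme of their own. Ligand binding brings chains together, often a ligand-specific chain and a shared signalling chain such as beta common (Csf2rb), gp130 (Il6st) or the common gamma chain (Il2rg), and bound JAK kinases then phosphorylate STAT transcription factors. IL-1, IL-18 and IL-17 receptors signal through adaptors such as MyD88 or Act1, TNF receptors through TRAF and death-domain proteins, and TGF-beta receptors are themselves kinases for SMAD proteins. Chemokine receptors are G protein-coupled receptors that guide migration. Normal granulocyte-macrophage progenitors use GM-CSF, IL-3 and G-CSF receptors for survival and differentiation, and CXCR4 holds hematopoietic cells in the marrow.

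The group label names a microRNA family whose members share 1 seed, the bases 2 to 8 that pair with target transcripts. The mature sequences, from RefSeq on GRCm38.p6, are shown 5′ to 3′ with the seed in capitals, because the receptor transcripts were searched for its match. They lie at chr16:77598940-77598961, chr17:17830194-17830215 and chr9:41531437-41531458, each on the plus strand.
mmu-miR-99a-5p: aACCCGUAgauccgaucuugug
mmu-miR-99b-5p: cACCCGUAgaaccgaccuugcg
mmu-miR-100-5p: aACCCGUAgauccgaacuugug
The match to bases 2 to 8 (TACGGGT) or to bases 2 to 7 followed by A (ACGGGTA) was present in the annotated 3′ UTR of 0 of the 41 receptors, against 291 of 12362 tested genes with a 3′ UTR (2.35%), on the transcript strand. A match to bases 2 to 7 alone (capitals) was present in Il17ra at chr6:120486117-120486122 on the plus strand and in Tnfrsf1b at chr4:145214206-145214211 on the minus strand. Each match is shown with its flanks, on the transcript strand.
Il17ra: ctgtaagggACGGGTgaagttcac
Tnfrsf1b: gggaaggagACGGGTtctgtcatc
A match is a description of letters and not a measured site, and no match says only that these letters are not in these windows.

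The libraries held 38458519 to 42674407 counts in genes. Precursor genes Mir99a, Mir99b and Mir100 had 0 counts in all 4 libraries, so these libraries do not check the level of the microRNA that the group label names. Scr 1 stood apart: 28573 genes had a count there, against 21372 to 24038 in the other libraries, and olfactory receptor genes, which blood cells are not known to use, held 51.9 CPM (counts per 1000000 gene counts) against 4.78 to 15.0. Across genes, Scr 2 correlated as closely with miR-99 KD 1 (Pearson r = 0.978) as the miR-99 KD libraries did with each other (0.977), and the Scr libraries correlated less (0.968). Of the sort markers, Kit (234 to 437 CPM), Cd34 (291 to 356) and Fcgr3, which encodes part of the CD16/32 epitope (382 to 486), were present in every library. Ly6a, which encodes Sca-1, had 4, 8, 5 and 4 counts, so the Sca-1+ label of the gate had almost no transcript behind it.

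Receptor levels are given as CPM after scaling by TMM factors (edgeR corrections of library totals for composition), in the order Scr 1, Scr 2, miR-99 KD 1, miR-99 KD 2. Of the 41 receptors, 32 were at 1 CPM or more in all 4 libraries, 25 were at 10 CPM or more in all, and 6 were under 1 CPM in all. A gene with a count of 0 could have a level of up to 3 counts, which was 0.0703 to 0.0780 CPM on unscaled totals, counting error only. To compare genes, CPM was divided by exon length in kilobases and averaged over the libraries. On this per-length scale Ifngr1, the ligand-binding chain of the interferon gamma receptor, had the highest level at 385. Csf2ra, the ligand-binding chain of the GM-CSF receptor, followed at 125 and Cxcr4 at 108; their ranges over the libraries, 79.3 to 163 and 76.3 to 154, overlapped. Next came Tnfrsf1a at 54.1, Ccr1 at 50.5 and Ifnar2 at 49.3, which also overlapped in range, and then Csf2rb, Il10rb and Csf3r at 37.6, 37.3 and 36.7. The lowest were Il1rl1 at 0.0308, Il2rb at 0.0255, Il2ra at 0.0117 and Il5ra at 0.0101. In bulk RNA, fewer cells that carry a receptor and less of its RNA in each cell cannot be told apart.

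**Figure D1:**
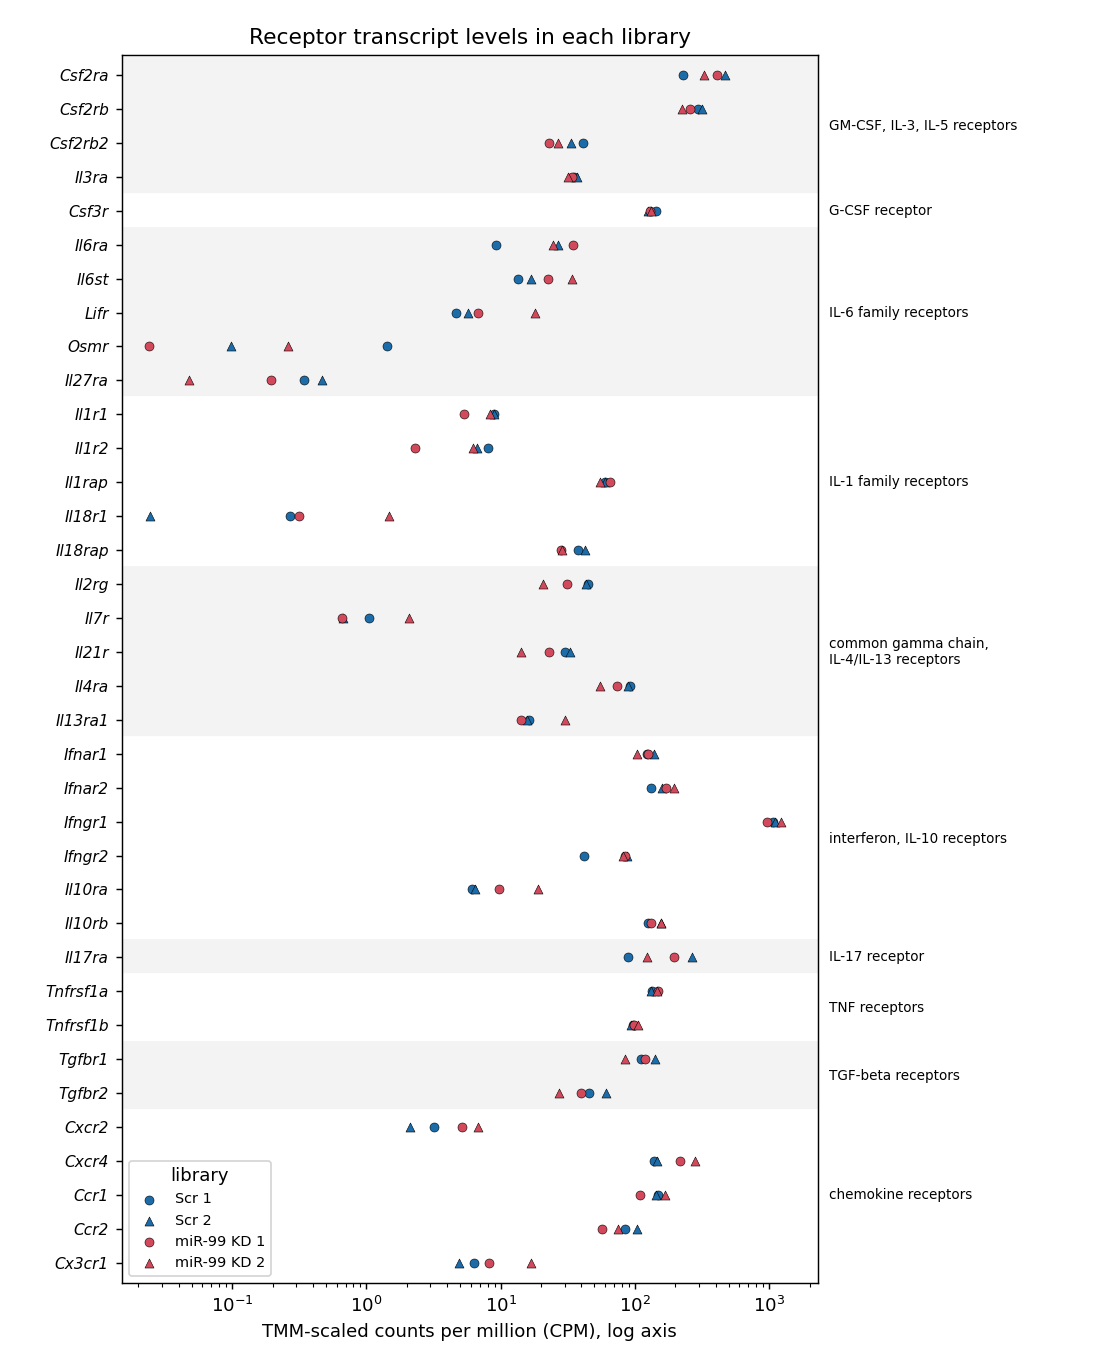
TMM-scaled CPM on a log axis of each of the 36 receptors with enough counts to be tested, 1 point per library (blue, Scr; red, miR-99 KD; circles, replicate 1; triangles, replicate 2), in role groups. Most points of a receptor lie close together relative to the spread of levels between receptors, and the widest scatter is in Osmr and Il18r1, at the lowest levels.

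Of the 41 receptors, 36 had enough counts for the comparison of miR-99 KD with Scr, and 5 (Il5ra, Epor, Il1rl1, Il2ra and Il2rb) did not. No receptor passed the threshold, an edgeR quasi-likelihood adjusted p under 0.05 over all 15591 genes tested; 0 of those genes passed either (0%). With DESeq2, 0 of 38 receptors passed, against 207 of 17331 genes (1.19%). At an unadjusted edgeR p under 0.05 there were 6 receptors (16.7%), beside 7.89% of all genes. Of these, 4 had higher values in miR-99 KD (Cxcr4, Cxcr2, Il10ra and Il6st), beside 2.66% of all genes in that direction, and 2 had lower values (Il2rg and Csf2rb2), beside 5.23%. In 22 receptors (61.1%) the groups did not overlap, beside 44.3% of all genes: 10 were higher in both miR-99 KD libraries (18.9% of all genes) and 12 were lower in both (25.3%). Of the 36 receptors, only Il27ra, among the 12 lower, reached the filter through 1 group, Scr.

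The log2 fold change, miR-99 KD over Scr, was positive in 18 receptors and negative in 18, with a median of −0.02 beside −0.01 for all genes. Its absolute size had a median of 0.49 beside 0.28 for all genes. Neither direction prevailed among the receptors, and 6 of the 10 role groups held values of both signs.

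**Figure D2:**
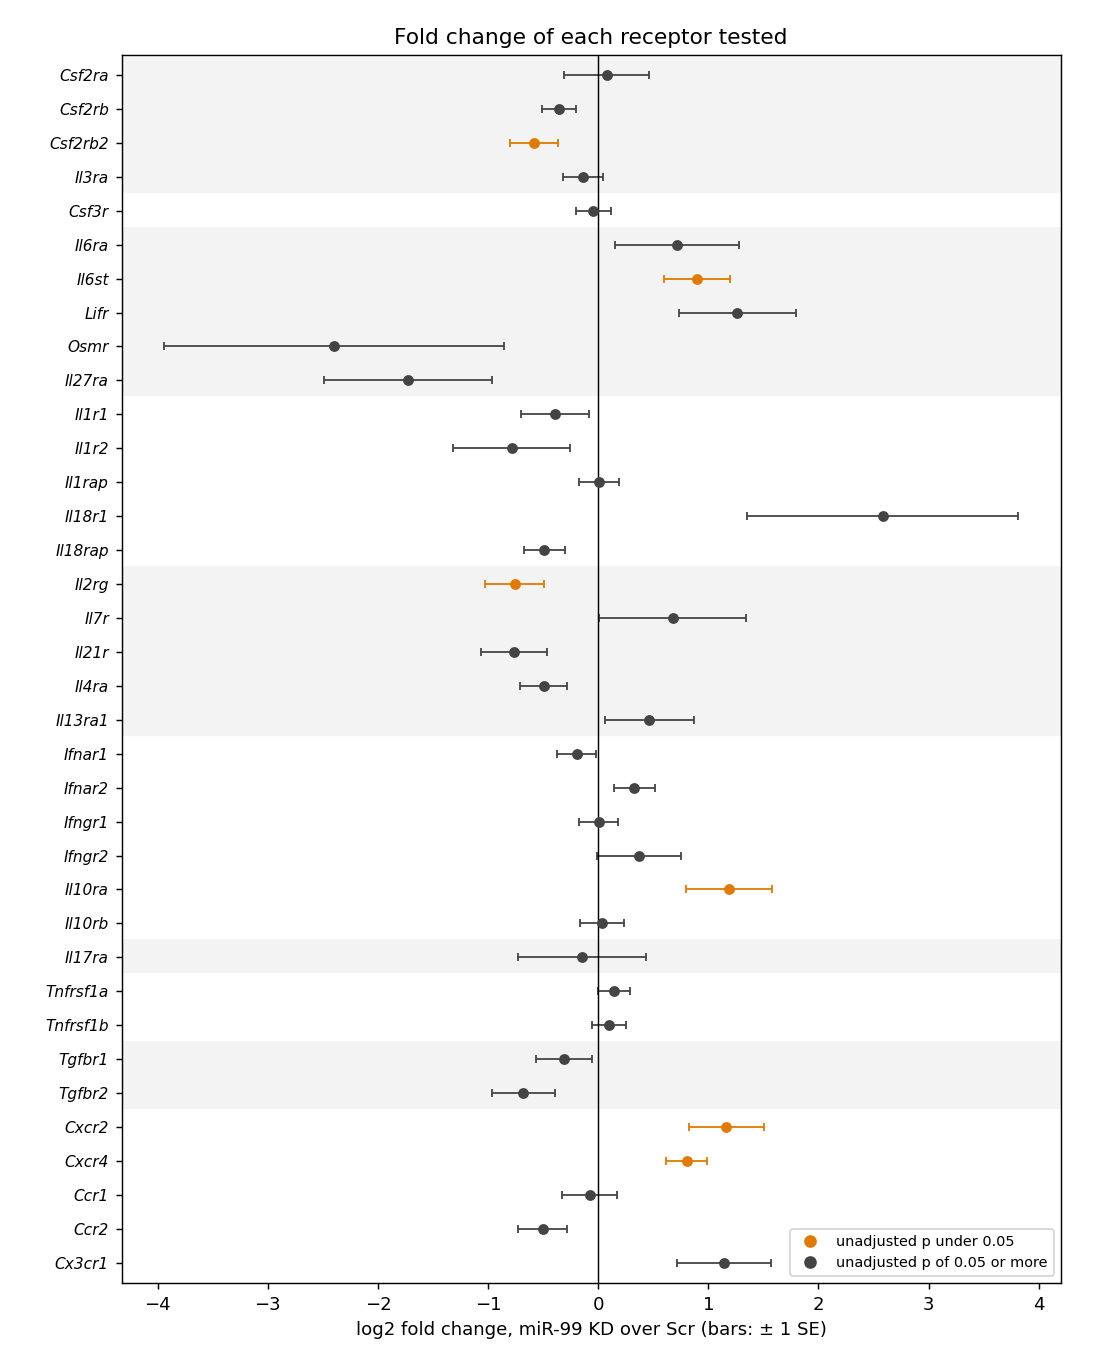
Log2 fold change of miR-99 KD over Scr with 1 standard error on each side for the 36 receptors tested, with role groups shaded in turn. The 6 receptors in orange had an unadjusted edgeR p under 0.05, and none of the 36 passed after adjustment over all genes.

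Among the chemokine receptors, 3 of 5 were higher in both miR-99 KD libraries and 1 was lower in both, beside 18.9% and 25.3% of all genes. Cxcr4 is the receptor for CXCL12, which marrow stroma releases, and lies at chr1:128588199-128592293 on the minus strand. Its level was 138, 146, 216 and 278 CPM. Both miR-99 KD libraries lay above both Scr libraries, by means of 247 ± 43.7 (SD, n = 2) against 142 ± 5.47. The log2 fold change was 0.80 ± 0.19 (SE), and the edgeR adjusted p of 0.507 was the smallest of the 36 receptors (DESeq2 adjusted p 0.302). Leaving out each library in turn gave 0.64 to 1.03.

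Cxcr2, the receptor for the neutrophil-attracting CXC chemokines, had 3.21, 2.10, 5.15 and 6.73 CPM. The groups again did not overlap, at 2.65 ± 0.788 (SD, n = 2) in Scr and 5.94 ± 1.12 in miR-99 KD, with a log2 fold change of 1.16 ± 0.34 (edgeR adjusted p 0.583). Cx3cr1, the fractalkine receptor of monocytes, had 6.32, 4.93, 8.15 and 16.7 CPM, highest in miR-99 KD 2. Its log2 fold change was 1.14 ± 0.43 (edgeR adjusted p 0.631) and 0.57 without that library. Ccr2, which binds CCL2 and brings monocytes out of the marrow, had 84.1, 103, 57.3 and 74.8 CPM. Both miR-99 KD libraries were the lower ones (log2 fold change −0.50 ± 0.22, edgeR adjusted p 0.659), although Ccr2 and Cx3cr1 are both monocyte receptors. Ccr1, which binds CCL3 and CCL5 and lies beside Ccr2 on chromosome 9, had 149, 145, 110 and 169 CPM. Its miR-99 KD libraries lay on either side of the Scr libraries, and its log2 fold change was −0.08 ± 0.25.

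Beside these values, markers of maturing myeloid cells were higher in summed level in miR-99 KD. The summed level of 14 granulocyte maturation genes was 5810 and 4344 CPM in the Scr libraries and 11370 and 24560 CPM in the miR-99 KD libraries. None of the 14 was at 0, and Ly6g, a marker of mature neutrophils, was under 1 CPM in all. Their log2 fold changes were positive in 13 and negative in Ctsg (−0.09, groups overlapping). In 11 both miR-99 KD libraries were higher, beside 18.9% of all genes. After adjustment 0 passed in edgeR, and 7 passed with DESeq2, all higher, beside 1.19% of all genes. For 12 monocyte and macrophage genes the sum was 2592 and 2491 against 3217 and 5146 CPM, with none at 0 and Ms4a7 under 1 CPM in all. Of those 12, 7 had positive and 5 negative log2 fold changes: Ly6c2, Lyz2 and F13a1 made up most of the sum and were higher in both miR-99 KD libraries, while the macrophage genes C1qa, C1qb and Mrc1 were lower in both. Their part in the values of Cxcr4, Cxcr2, Cx3cr1, Il10ra or the other receptors was not tested.

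The promoter of Cxcr4, from 250 bases before to 50 bases after the RefSeq start, is shown because this receptor had the smallest p (chr1:128592250-128592549, minus strand, GRCm38.p6). It holds no match on either strand to the STAT motif TTCNNNGAA, the PU.1 motif GAGGAAGT or the C/EBP motif TTGCNNAA, so no base is in capitals.
Cxcr4: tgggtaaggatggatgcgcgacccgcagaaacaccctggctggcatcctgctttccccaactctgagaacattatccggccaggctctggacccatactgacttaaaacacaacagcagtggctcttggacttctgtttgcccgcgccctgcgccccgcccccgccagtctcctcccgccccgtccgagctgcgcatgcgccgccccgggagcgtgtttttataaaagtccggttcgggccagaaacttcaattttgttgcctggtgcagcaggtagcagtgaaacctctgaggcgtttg
This says only that those letters are not in this window.

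The IL-6 family shares the signalling chain gp130. Il6st, which encodes it (chr13:112464070-112510086, plus strand), had 13.4, 16.9, 22.3 and 34.1 CPM. Both miR-99 KD libraries were the higher ones, at 28.2 ± 8.32 (SD, n = 2) against 15.1 ± 2.46. The log2 fold change was 0.90 ± 0.30 (edgeR adjusted p 0.616) and 0.59 without miR-99 KD 2. Lifr, the partner of gp130 in the receptor for leukemia inhibitory factor, had 4.62, 5.72, 6.80 and 18.0 CPM. It too did not overlap, but its log2 fold change of 1.26 ± 0.53 (edgeR adjusted p 0.655) was 0.43 without miR-99 KD 2. Il6ra, the IL-6-binding chain, had 9.29, 26.7, 34.7 and 24.4 CPM: Scr 1 was low and Scr 2 lay between the miR-99 KD libraries. Osmr, the oncostatin M chain, had 59, 4, 1 and 11 counts, most of them in Scr 1, and its log2 fold change of −2.40 ± 1.54 was 0.61 without that library. Il27ra, the IL-27 chain, had 14, 19, 8 and 2 counts. Among 9 stroma and endothelium genes the sum was 566 and 562 CPM in Scr and 363 and 277 CPM in miR-99 KD. Nearly all of it was Vcam1 (445, 444, 207 and 138 CPM) and Pecam1, which was higher in both miR-99 KD libraries (115, 115, 154 and 136 CPM). After adjustment 0 of the 9 passed in edgeR, and 1, Vcam1, passed with DESeq2 (adjusted p 0.0149), beside 1.19% of all genes. Col1a1 (37, 5, 9 and 24 counts) and Col1a2 (54, 10, 17 and 22 counts) were highest in Scr 1, as Osmr was. Sparc (107, 86, 23 and 36 counts) was lower in both miR-99 KD libraries, and Cdh5 had 0 to 2 counts. The part of such cells in the Osmr and Lifr values was not tested.

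Of the 6 interferon and IL-10 receptor chains, Il10ra had the largest fold change. It encodes the IL-10-binding chain (chr9:45253837-45269149, minus strand) and had 6.13, 6.43, 9.70 and 18.9 CPM. The Scr libraries were close together and both miR-99 KD libraries lay above them, at 14.3 ± 6.50 (SD, n = 2) against 6.28 ± 0.216. The log2 fold change was 1.19 ± 0.39 (edgeR adjusted p 0.611, DESeq2 adjusted p 0.324) and 0.66 without miR-99 KD 2. Its partner Il10rb, which also serves other cytokines of the family, had 124, 156, 131 and 156 CPM, with a log2 fold change of 0.04 ± 0.20.

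Ifngr1 had 1073, 1114, 970 and 1224 CPM. The miR-99 KD libraries enclosed the Scr libraries, and the log2 fold change was 0.0043 ± 0.18, a value that turned to −0.0058 with upper-quartile scaling. Its signalling partner Ifngr2 had 41.9, 86.9, 84.5 and 82.0 CPM, with Scr 1 alone low. For the type I interferon receptor, Ifnar1 had 124, 138, 125 and 104 CPM with overlapping groups (log2 fold change −0.19 ± 0.18, edgeR adjusted p 0.771). Its other chain, Ifnar2, had 131, 160, 169 and 196 CPM, higher in both miR-99 KD libraries (0.33 ± 0.19, edgeR adjusted p 0.700). The point estimates of the chains of 1 receptor thus had opposite signs, and that difference was not tested. Ifnar2, Il10rb, Ifnar1 and Ifngr2 are neighbours on chromosome 16 within bases 91372783 to 91565623.

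The receptors for GM-CSF, IL-3 and IL-5 share the beta common chain, encoded by Csf2rb (chr15:78325752-78353847, plus strand); mice have a close copy that serves IL-3 alone, encoded by the neighbouring Csf2rb2 (chr15:78282507-78305721, minus strand). Csf2rb had 297, 317, 256 and 224 CPM. Both miR-99 KD libraries were the lower ones, at 240 ± 22.1 (SD, n = 2) against 307 ± 14.1, with a log2 fold change of −0.36 ± 0.15 (edgeR adjusted p 0.659). Csf2rb2 had 40.8, 33.3, 22.8 and 26.6 CPM. It had the same order of groups, 24.7 ± 2.68 against 37.1 ± 5.25, with a log2 fold change of −0.59 ± 0.22 (edgeR adjusted p 0.630, DESeq2 adjusted p 0.998) and of −0.36 without Scr 1.

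These counts are uncertain because the genes are so alike: over 2631 aligned coding bases, 2505 were identical (95.2%), and 26% of the 50-base windows of Csf2rb also occurred in Csf2rb2, while alignments that were not unique stayed out of the counts. The coding stretch of each around its WSXWS motif, the signature of this receptor class, is shown from GENCODE M21 with the bases that differ in capitals (coding bases 1246 to 1335 of Csf2rb and 1243 to 1332 of Csf2rb2).
Csf2rb: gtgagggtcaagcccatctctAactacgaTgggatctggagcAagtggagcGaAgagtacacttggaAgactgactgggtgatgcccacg
Csf2rb2: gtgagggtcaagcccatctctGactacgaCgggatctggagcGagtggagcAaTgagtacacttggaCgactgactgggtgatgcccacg
Only 6 of these 90 bases differ.

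The Csf2rb2 promoter is shown with its motif matches in capitals, 1 to STAT (TTCNNNGAA) and 1 to PU.1 (GAGGAAGT, here on the other strand), because it alone among the receptors held both (chr15:78305672-78305971, minus strand, RefSeq on GRCm38.p6).
Csf2rb2: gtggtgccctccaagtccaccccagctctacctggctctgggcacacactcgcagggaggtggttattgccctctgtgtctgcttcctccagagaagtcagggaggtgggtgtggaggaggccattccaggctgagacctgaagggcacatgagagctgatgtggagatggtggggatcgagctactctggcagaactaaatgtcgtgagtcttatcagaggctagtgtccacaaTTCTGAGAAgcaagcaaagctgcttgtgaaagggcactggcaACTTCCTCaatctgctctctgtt
The promoter table held 41 starts of 35 of the receptors. On either strand, the STAT motif was in 8 of them (19.5%) and in 8.30% of all 32851 promoters. The PU.1 motif was in 2 (4.88%) beside 3.20%, and the C/EBP motif TTGCNNAA was in 5 (12.2%) beside 10.8%. A match is not a measured binding site.

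Csf2ra, the GM-CSF-binding chain, had 228, 468, 406 and 328 CPM. The 2 Scr libraries were the lowest and the highest, so the groups overlapped (log2 fold change 0.08 ± 0.39, edgeR adjusted p 0.959). Il3ra, the IL-3-binding chain, had 35.4, 37.1, 34.3 and 31.5 CPM. The groups did not overlap but lay close, with a log2 fold change of −0.14 ± 0.18 (edgeR adjusted p 0.833). Il5ra, the IL-5-binding chain of eosinophils, had 0, 1, 3 and 2 counts; the ratio of miR-99 KD to Scr was 4.89, with a 95% counting interval of 0.547 to 231. Of the 12 mast cell, basophil and eosinophil markers, Tpsb2 was at 0 in all libraries and the sum was 366 and 392 CPM in Scr and 498 and 268 CPM in miR-99 KD.

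Csf3r, the G-CSF receptor that drives neutrophil production, had 144, 124, 130 and 131 CPM. The miR-99 KD libraries lay between the Scr libraries (log2 fold change −0.04 ± 0.16, edgeR adjusted p 0.942). Its sign turned without a filter on low counts, to 0.01. Epor, the erythropoietin receptor, had 6, 16, 4 and 1 counts, or 0.222 times the Scr level in miR-99 KD, and its counting interval (0.0658 to 0.602) does not cover the spread between mice. Of 10 erythroid genes none was at 0 in all libraries, 4 had positive and 6 negative log2 fold changes, and the sum was 183 and 240 CPM in Scr and 208 and 321 CPM in miR-99 KD. Most of the sum was Tfrc, which dividing cells of other lineages also express (107, 134, 159 and 200 CPM). The red cell membrane gene Slc4a1 (5.49, 18.0, 0.967 and 2.01 CPM) was lower in both miR-99 KD libraries, as Epor was. It was the 1 gene of the 10 to pass with DESeq2 (adjusted p 0.00333), beside 1.19% of all genes, and 0 passed in edgeR. The globin genes Hba-a1 (17.3, 19.8, 11.2 and 29.8 CPM) and Hbb-bs (39.1, 48.7, 29.4 and 71.3 CPM) had overlapping groups. Of the 10 genes, 4 were lower and 1 was higher in both miR-99 KD libraries, beside 25.3% and 18.9% of all genes. Among the 4, Car1 (19, 23, 3 and 5 counts) reached the filter on low counts through Scr alone, so it could enter only as lower. The part of erythroid cells in the Epor counts was not tested.

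The common gamma chain and the IL-4 receptor chain had lower values in miR-99 KD. Il2rg, the gamma chain shared by the IL-2, IL-4, IL-7 and IL-21 receptors (chrX:101264378-101268255, minus strand), had 44.6, 43.2, 31.2 and 20.6 CPM. The Scr libraries were nearly equal and both miR-99 KD libraries lay below, at 25.9 ± 7.51 (SD, n = 2) against 43.9 ± 1.02. The log2 fold change was −0.76 ± 0.27 (edgeR adjusted p 0.621, DESeq2 adjusted p 0.846), and −0.46 without miR-99 KD 2. Il21r had 30.0, 33.0, 22.9 and 14.2 CPM and its chromosome 7 neighbour Il4ra 91.9, 89.3, 73.8 and 54.8 CPM. In both, miR-99 KD 2 was the lowest library and the groups did not overlap, with log2 fold changes of −0.76 ± 0.30 and −0.49 ± 0.21 (edgeR adjusted p 0.639 and 0.659). Il13ra1, which pairs with Il4ra in the type II receptor, had 16.1, 15.8, 14.2 and 29.9 CPM, high in miR-99 KD 2 alone.

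Of the chains best known from lymphoid cells, Il2ra had 8, 1, 1 and 1 counts and Il2rb had 5, 2, 10 and 1. Il7r, which marks lymphoid progenitors, was low but well above them at 43, 27, 27 and 88 counts. Of 12 T and NK cell markers, 9 were under 1 CPM in all libraries, Cd3e among them at 2 to 4 counts, and the sum of 119 to 162 CPM was nearly all Nkg7. Of 9 B cell markers 6 were under 1 CPM in all, Pax5 among them at 0 to 3 counts, and the sum of 63.7 to 90.6 CPM was nearly all Cd79b.

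The IL-1 family receptors hold a signalling chain each for IL-1, IL-33 and IL-18, accessory chains and a decoy. Il1r1, the IL-1 signalling chain, had 8.87, 8.99, 5.30 and 8.34 CPM. Both miR-99 KD libraries were lower, miR-99 KD 2 only slightly (log2 fold change −0.39 ± 0.31, edgeR adjusted p 0.754). Il1r2, the decoy that binds IL-1 without signalling, had 8.10, 6.70, 2.32 and 6.26 CPM and the same order (−0.79 ± 0.53); its log2 fold change was −0.18 without miR-99 KD 1 and −1.64 without miR-99 KD 2. Il1rap, the accessory chain shared by IL-1 and IL-33, had 60.4, 59.7, 65.5 and 55.4 CPM. Its groups overlapped and its log2 fold change of 0.01 ± 0.18 (edgeR adjusted p 0.989) became −0.02 with upper-quartile scaling. Il1rl1, the IL-33 receptor of mast cells, had 25, 2, 8 and 0 counts.

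The chains of the IL-18 receptor had point estimates of opposite sign. Il18rap, the accessory chain, had 37.5, 42.5, 28.3 and 28.6 CPM, lower in both miR-99 KD libraries (28.5 ± 0.238 against 40.0 ± 3.53, SD, n = 2) with a log2 fold change of −0.49 ± 0.19 (edgeR adjusted p 0.635). Il18r1, the binding chain, had 11, 1, 13 and 62 counts. It was higher in both miR-99 KD libraries, with a log2 fold change of 2.58 ± 1.23 (edgeR adjusted p 0.667). It was the only receptor to pass in any setting: without Scr 1, the edgeR adjusted p was 0.00490, when 1.85% of all genes passed. That value compares 75 counts with a single count in Scr 2, 36.4 times its level (95% counting interval 6.34 to 1458), and without miR-99 KD 2 the log2 fold change was 1.12. All 5 genes for IL-1, IL-33 and IL-18 binding or accessory chains on chromosome 1 (Il1r2, Il1r1, Il1rl1, Il18r1 and Il18rap) lie within bases 40074079 to 40551705.

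The TNF receptors had narrow ranges. Tnfrsf1a, the death-domain receptor, had 134, 132, 148 and 147 CPM, and Tnfrsf1b, the receptor without a death domain, had 97.0, 94.1, 98.6 and 106 CPM. Both were higher in both miR-99 KD libraries, by log2 fold changes of 0.14 ± 0.14 and 0.10 ± 0.15 (edgeR adjusted p 0.788 and 0.861).

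Of the TGF-beta receptors, which signal as a pair of kinases, Tgfbr2, the ligand-binding chain, had 45.9, 61.4, 39.8 and 27.2 CPM. Both miR-99 KD libraries were the lower ones (33.5 ± 8.94 against 53.6 ± 10.9, SD, n = 2), with a log2 fold change of −0.68 ± 0.29 (edgeR adjusted p 0.659). Tgfbr1, the chain that phosphorylates SMAD proteins, had 110, 142, 120 and 83.8 CPM, with miR-99 KD 1 between the Scr libraries (−0.31 ± 0.26, edgeR adjusted p 0.755). Il17ra, the chain shared by IL-17 receptors, had 89.3, 266, 197 and 124 CPM. The Scr libraries were its extremes, and the log2 fold change was −0.15 ± 0.58 (edgeR adjusted p 0.946).

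The libraries of a group differed most in a few receptors. Among the 25 at 10 CPM or more in every library, Csf2ra, Ifngr2 and Il17ra differed by more than 2-fold between the Scr libraries, each with Scr 1 low. Il13ra1, also among the 25, differed by 2.10-fold between the miR-99 KD libraries, with miR-99 KD 2 high. Of all 36 tested receptors, 6 differed by more than 2-fold between the Scr libraries and 8 between the miR-99 KD libraries. In 16 of the 22 receptors whose groups did not overlap, miR-99 KD 2 lay further from Scr than miR-99 KD 1 did. Of the 36 tested receptors, 13 had their highest value in miR-99 KD 2 and 14 in Scr 2, against 6 in Scr 1 and 3 in miR-99 KD 1. The same counts were not made over all genes, so they do not set the receptors apart from other genes.

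**Figure D3:**
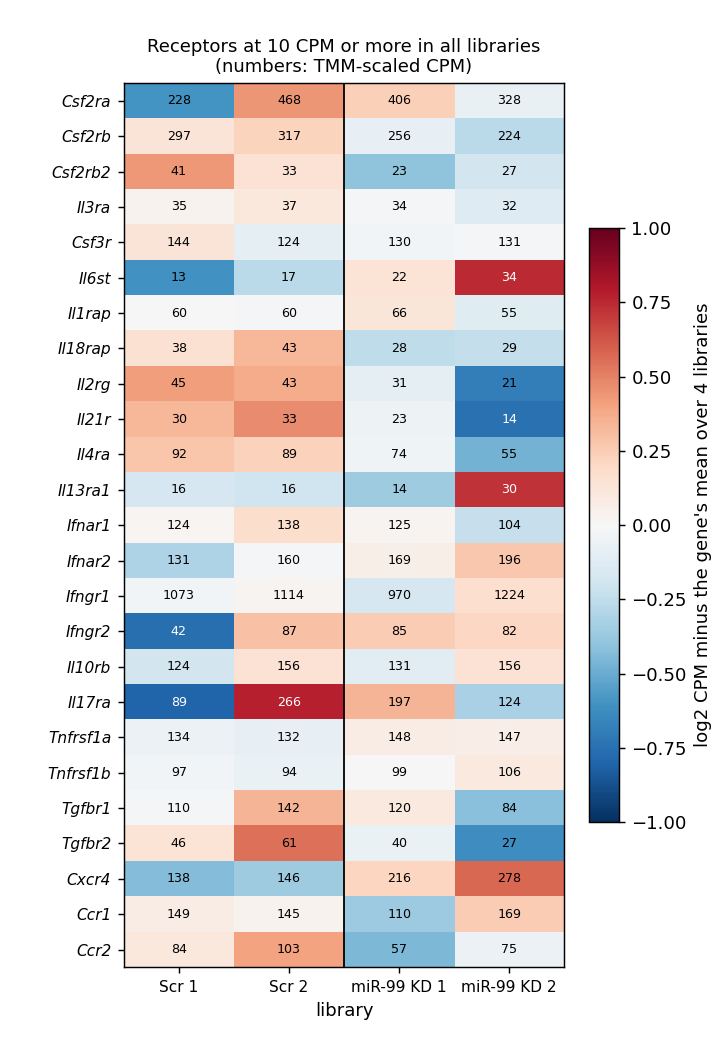
Log2 TMM-scaled CPM of each of the 25 receptors at 10 CPM or more in all libraries, as the difference from that receptor's mean over the 4 libraries (color), with the CPM written in each cell. Scr 1 is low in Csf2ra, Ifngr2 and Il17ra, and miR-99 KD 2 is low in Il2rg, Il21r and Tgfbr2 and high in Cxcr4, Il6st and Il13ra1.

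Chains were then set side by side for 20 receptor complexes, on the per-length scale. In 10 of them every chain was at 1 CPM per kilobase or more in all 4 libraries: the receptors for GM-CSF, IL-3, IL-6, IL-21, IL-4 (type I), IL-4 and IL-13 (type II), type I interferon, interferon gamma, IL-10 and TGF-beta. In the other 10 at least 1 chain fell short of that line in a library. The IL-5 receptor had its shared chain Csf2rb at 37.6 and Il5ra at 0.0101. The IL-18 receptor had Il18rap at 5.07 and Il18r1 at 0.108, and for IL-33, Il1rap was at 5.30 and Il1rl1 at 0.0308. Il1r1 missed the line in miR-99 KD 1 alone, at 0.832. The IL-17 receptor had Il17ra at 19.5 and its partner Il17rc at 0.198. RNA levels do not show which chains met at the cell surface.

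**Figure D4:**
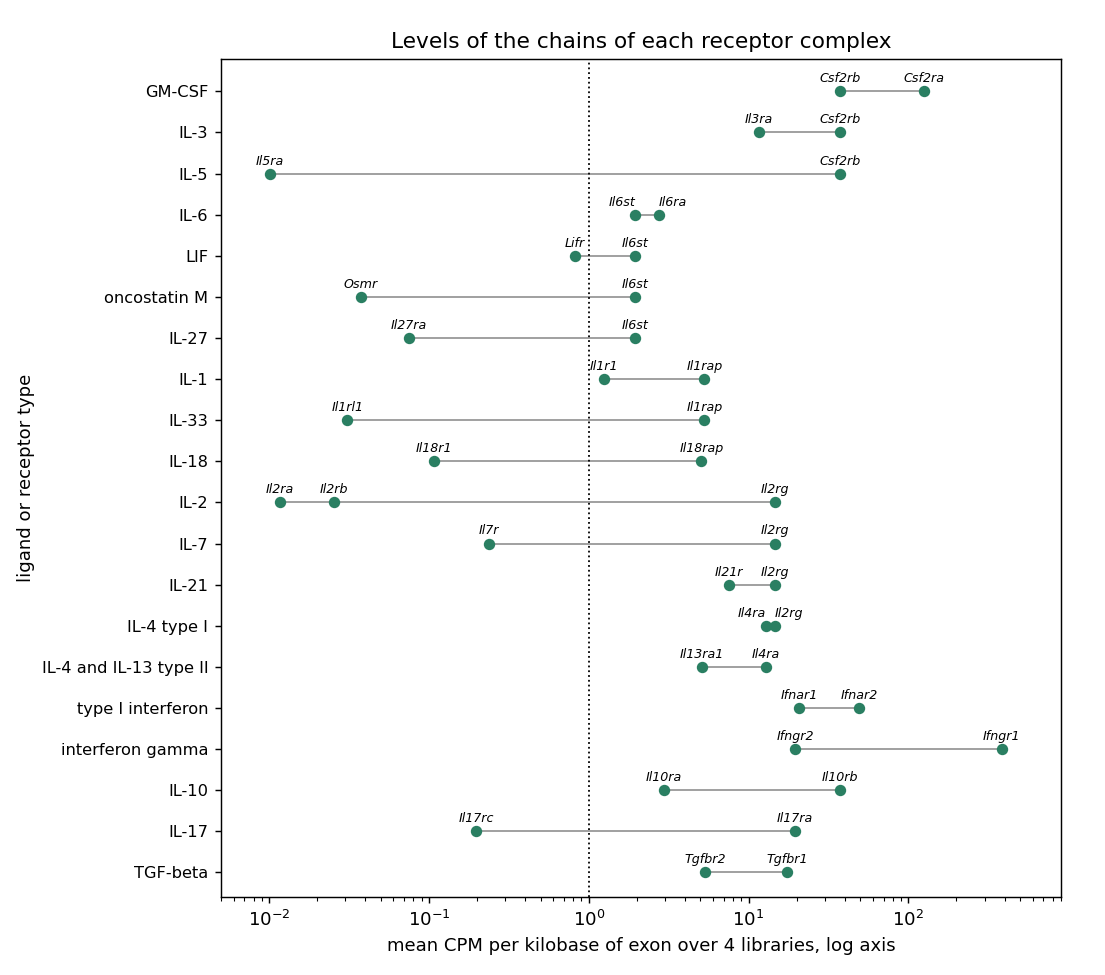
Mean CPM per kilobase of exon over the 4 libraries (log axis) of each chain of 20 receptor complexes, 1 row per ligand or receptor type, with a dotted line at 1. Shared chains such as Csf2rb, Il2rg and Il1rap lie right of the line in every row, while Il5ra, Il2ra, Il2rb, Il1rl1, Osmr, Il27ra, Il18r1, Il7r, Il17rc and Lifr lie left of it.

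Genes that act beside or after the receptors were read from the same edgeR fit, and none of them passed. Of 23 JAK-STAT genes, 8 had positive and 15 negative log2 fold changes, with a median of −0.21, and 0 had an unadjusted p under 0.05. The smallest p belonged to Ptpn6, a phosphatase that damps cytokine signals (659, 627, 531 and 507 CPM, log2 fold change −0.31 ± 0.14, edgeR adjusted p 0.659), and Jak3, the kinase bound to the common gamma chain (104, 125, 91.9 and 59.9 CPM, −0.59 ± 0.27, edgeR adjusted p 0.661). Both genes had lower values in both miR-99 KD libraries, the order also seen in Il2rg. Ptpn6 and Jak3 were named for their small p, and a link to Il2rg was not tested. Of the 23 genes, 7 were lower and 1 was higher in both miR-99 KD libraries, beside 25.3% and 18.9% of all genes. Jak1 had 266, 439, 358 and 253 CPM and Jak2, which serves the beta common chain, 7.58, 23.0, 21.5 and 11.8 CPM; in both, the groups overlapped. Stat3 had a log2 fold change of −0.33, Stat5a −0.30 and Stat5b −0.17.

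The feedback genes that STATs induce were low. Cish had 1.65 to 2.36 CPM over the libraries (log2 fold change 0.10), Socs1 0.900 to 6.72 with Scr 1 lowest, Socs2 0.145 to 0.608 and Socs3 0.284 to 1.33. Their groups overlapped, and none had an unadjusted p under 0.05.

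Of 17 adaptors of IL-1, IL-17 and TNF receptors, 9 were positive and 8 negative (median 0.10), with 0 at an unadjusted p under 0.05. Tab1 had a log2 fold change of −0.65 and Tnfaip3, a brake on NF-kappaB, of 0.69, the smallest p of the list (edgeR adjusted p 0.661 and 0.679). Myd88 was at 0.10 and Traf6 at −0.17. Of 13 genes of the SMAD pathway, 8 were positive and 5 negative (median 0.09), again with 0 at an unadjusted p under 0.05, led by Bmpr2 (0.77, edgeR adjusted p 0.663) and Smad4 (0.43, edgeR adjusted p 0.717). Smad3 was at −0.54 and Smad7 at 0.15.

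Most ligands of the receptors were barely present in these cells. Of 42, 30 were under 1 CPM in all libraries and 5 were at 0 in all. Of the ligands, 14 could be tested, 3 with positive and 11 with negative log2 fold changes. At an unadjusted edgeR p under 0.05 there were 3 (21.4% of those tested), all lower, beside 7.89% of all genes, 5.23% lower. Among those present, Ccl9 was at 180 to 374 CPM, with overlapping groups. Ccl3, a ligand of Ccr1, had 10.6, 11.3, 3.92 and 6.28 CPM, lower in both miR-99 KD libraries (−1.10 ± 0.32, edgeR adjusted p 0.583). Cx3cl1, the ligand of Cx3cr1, had 20, 11, 5 and 3 counts (−1.95 ± 0.63, edgeR adjusted p 0.607). It is 1 of the 3 lower ligands, but it reached the filter on low counts through Scr alone. It could thus enter the test only as lower. Cxcl12, the ligand of Cxcr4, had 3.02, 0.567, 1.09 and 1.30 CPM, highest in Scr 1. Tgfb1 was at 127 to 236 CPM (log2 fold change 0.05) and Csf1 at 1.92 to 4.96 CPM (0.75). Il1b had 9, 3, 14 and 7 counts and Il6 had 11, 2, 0 and 0.

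Of 45 other receptors of these families, 32 could be tested, 9 with positive and 23 with negative log2 fold changes (median −0.56). At an unadjusted p under 0.05 there was 1 higher and there were 5 lower, 18.8% of those tested beside 7.89% of all genes (2.66% higher and 5.23% lower). Among the 5 lower, Tnfrsf9 and Cxcr5 (11, 15, 0 and 3 counts) reached the filter on low counts through Scr alone. Both could thus enter the test only as lower, as could Il17re among the 23 negative ones. The smallest p was that of Tnfrsf9, which T cells use for costimulation, with 23, 10, 1 and 1 counts (edgeR adjusted p 0.466), and the next that of Il17rb, the IL-25 receptor chain, with 1.02, 0.986, 1.91 and 2.82 CPM (log2 fold change 1.23 ± 0.34, edgeR adjusted p 0.580). Csf1r, the M-CSF receptor of monocytes, had 94.3, 75.1, 100 and 120 CPM (log2 fold change 0.38).

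Some receptor exons overlap other genes in GENCODE M21: Il2rg overlaps Gm20489, and Ifnar2 and Il10rb overlap Gm21970, on the same strand, as Csf2rb and Csf2rb2 overlap the microRNA genes Mir7676-2 and Mir7676-1, while Il3ra, Il6ra, Il27ra, Il1rap, Il4ra and Cx3cr1 overlap a gene on the other strand. No source used here states the strand setting of the counting, so reads of those pairs may not be told apart.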

How the data were processed

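RNA was sequenced from 4 libraries of sorted L-GMPs (2 Scr, 2 miR-99 KD), amplified by the SMARTer method per the labels' protocols. The authors deposited unscaled read counts for each Ensembl gene identifier, as whole numbers with unequal totals show. STAR, Picard, HTSeq and DESeq2 and the mm9 build are named in the submitters' processing notes. No source used here gives their versions, the annotation release or the strand setting. Categories that name no gene held 43.7% to 49.7% of entries and stayed out of library sizes and tests.

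Symbols came from the reference name table; coordinates and exon lengths were looked up by identifier in GENCODE M21 (GRCm38), and none was converted from mm9. CPM was computed as counts divided by the product of the filtered gene total and the TMM factor, times 1000000. The comparison used edgeR 4.0.16 (R 4.3.3), TMM factors, filterByExpr with a minimum count of 10, a quasi-likelihood fit on group, and Benjamini-Hochberg adjustment over 15591 genes. The fit was also run on simulated data, with less spread between libraries than here and larger fold changes than most receptors had. That run does not show how well the fit finds changes of the size seen here. DESeq2 1.42.0 and limma-voom (limma 3.58.1), other scalings and filters, each library left out and a replicate block were alternatives. The block was not in the reported fit, because the labels give numbers but no shared litter, batch or day. Counting intervals are exact, at 95%, and cover counting error only.

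The receptors and gene lists were chosen with earlier results of these data known. All receptors were named; full values went to those at 1 CPM or more in at least 2 libraries with an unadjusted p under 0.05 and to a fixed set, and from each pathway list to fixed genes and the 2 smallest p. Some named genes are not reported here. Sequences were read from RefSeq tables (GRCm38.p6) and GENCODE M21.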

Additional observations from a re-analysis of the deposited data

How the results depend on the processing

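No receptor passed the threshold in any setting except without Scr 1, where Il18r1 did: leaving out each library in turn gave 0 to 1 receptors and 0 to 294 genes. Over all genes, 0 passed in the reported edgeR fit and with limma-voom, DESeq2 size factors in edgeR and the stricter filter, 207 with DESeq2, 23 with upper-quartile factors and 9 without a filter. With a replicate block 0 genes and 0 receptors passed and the median receptor log2 fold change was −0.0002. Same-numbered libraries deviated in opposite directions (r = −0.43 across genes). With 2 libraries per group, the deviations within a group mirror each other. Swapping the numbers in 1 group would therefore turn the sign of r. Whether the numbers mark a shared litter, batch or day was not tested beyond this value. A crossed block, chosen after seeing the data, gave 28 genes and 0 receptors. The median log2 fold change of the receptors lay between −0.06 and 0.05 over all alternatives. With other scalings and filters 20 to 23 receptors did not overlap. Of 392 receptor values under alternatives, 366 kept their direction and side of the threshold and 25, of 10 receptors, changed sign. These are refits of the same libraries. As no receptor passed in the reported fit, staying on that side of the threshold says little. None of the 6 receptors with an unadjusted p under 0.05 changed sign. Their groups did not overlap, so leaving out 1 library could hardly turn a sign, and this is no sign of stability. Leaving out each library in turn, log2 fold changes ranged from −0.28 to 0.74 in Csf2ra, −0.10 to 0.14 in Csf3r, −4.79 to 0.61 in Osmr, −0.057 to 0.16 in Il1rap, −0.36 to 1.34 in Il7r, −0.14 to 0.96 in Il13ra1, −0.14 to 0.22 in Ifngr1, −0.064 to 0.26 in Il10rb, −0.67 to 0.89 in Il17ra and −0.39 to 0.26 in Ccr1. Csf3r was at 0.010 with DESeq2 and 0.014 without a filter. Il1rap was at −0.019 with upper-quartile factors and −0.020 with the stricter filter. Ifngr1 was at −0.0050 with limma-voom, −0.0058 with upper-quartile factors, −0.027 with the stricter filter and −0.0053 with the replicate block, and Il17ra was at 0.018 with limma-voom and 0.018 with the block. The causes were not tested. The filter on low counts left 5 receptors, at 0 to 25 counts, untested, and with 2 mice per group the spread between mice limits every other value.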
